A study of Caenorhabditis elegans with 2 samples.

Results

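The snoRNA genes of Caenorhabditis elegans that lie outside protein-coding genes were examined for REC-8::GFP binding. They are the genes of biotype snoRNA in the Ensembl annotation of the WBcel235 genome (the assembly called ce11) that sit on a nuclear chromosome and not wholly within the span of a protein-coding gene. There were 130 such genes among 346 snoRNA genes and among 46890 nuclear genes of every kind. Of the 130, 124 overlapped no protein-coding gene, 5 overlapped one in part on the opposite strand and 1 (T23G11.12) in part on the same strand. The rule uses the annotation and no signal value. The strongest peak summit within 200 bp of each annotated start was then taken from each deposited peak list, and a gene with such a summit is said here to have a summit in that list.

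The data come from ChIP-seq of strain YL563, in which REC-8 carries a C-terminal GFP-FLAG tag, in 1 group of 2 biological replicates. Both were whole hermaphrodites, collected as young adults 48 hours after they had been synchronized as starved L1 larvae. Sonicated chromatin was precipitated with an antibody against GFP according to the sample description, although the antibody field of the labels reads rec-8. No control library or untagged strain was analysed here, so how often such summits occur without the tag was not tested, and whole animals do not show in which tissue a summit arose.

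Small nucleolar RNAs guide the modification of other RNAs, mainly ribosomal RNA, in the nucleolus. C/D box snoRNAs, which carry a C box near the 5′ end and a D box near the 3′ end, guide methylation of the ribose, and H/ACA box snoRNAs, which end just after an ACA, guide the conversion of uridine to pseudouridine. Many worm snoRNAs are made from introns of host genes, whereas snoRNA genes outside host genes are generally transcribed from promoters of their own. REC-8 is a kleisin subunit of the cohesin ring that holds sister chromatids together in meiosis.

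Sequences that resemble the promoter boxes of tRNA genes lay just upstream of many of the genes with the strongest peaks, and 5 of them are printed first. In tRNA genes, which RNA polymerase III transcribes, the A box and the B box are promoter elements inside the gene that are bound by the factor TFIIIC. Here a pair of such boxes was searched on the sense strand in the 300 bases from 250 before to 50 after each start. The A box was written as TGGC, any 2 bases and AGTGG, or as TGGC, any 2 bases, AG, any 2 bases and GG. The B box was GGTTCGA, any base and TCC. Each could have up to 2 mismatches, with 25 to 90 bases between their starts, a rule chosen after the sequences had been seen. In the next 5 lines the capitals before the gene mark the A box and the B box, and capitals within the gene mark a C box (TGATGA with up to 1 mismatch) and a D box (CTGA). The genome letters are those of RefSeq for WBcel235, read 5′ to 3′ along the gene's own strand, for W03C9.9 at chrII:11960816-11960959 (plus strand, the gene from base 83), Y75B12B.12 at chrV:15190976-15191160 (minus strand, the gene from base 68), F32E10.10 at chrIV:7574058-7574191 (plus strand, the gene from base 65), H09I01.2 at chrIV:8253015-8253165 (plus strand, the gene from base 80) and C53B7.8 at chrX:6867871-6868008 (plus strand, the gene from base 68).
W03C9.9: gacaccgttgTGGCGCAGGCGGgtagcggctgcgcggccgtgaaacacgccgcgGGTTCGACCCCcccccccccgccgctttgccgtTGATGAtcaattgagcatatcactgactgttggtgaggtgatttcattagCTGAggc
Y75B12B.12: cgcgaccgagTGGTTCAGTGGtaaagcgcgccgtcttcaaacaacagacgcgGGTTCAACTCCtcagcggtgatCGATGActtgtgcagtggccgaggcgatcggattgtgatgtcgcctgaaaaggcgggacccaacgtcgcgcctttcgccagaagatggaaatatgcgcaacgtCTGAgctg
F32E10.10: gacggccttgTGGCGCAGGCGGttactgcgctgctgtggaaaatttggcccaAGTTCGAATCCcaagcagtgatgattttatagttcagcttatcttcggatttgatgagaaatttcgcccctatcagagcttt
H09I01.2: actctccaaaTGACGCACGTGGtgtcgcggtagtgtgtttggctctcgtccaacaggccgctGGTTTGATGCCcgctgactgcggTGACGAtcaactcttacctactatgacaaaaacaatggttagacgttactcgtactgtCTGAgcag
C53B7.8: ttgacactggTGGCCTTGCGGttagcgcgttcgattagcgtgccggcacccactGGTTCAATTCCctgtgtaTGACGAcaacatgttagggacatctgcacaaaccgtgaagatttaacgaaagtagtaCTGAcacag

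A second element, CGGAACC, was found upstream of other members with a reproducible peak, again in sequences already seen. The next 3 lines show it in capitals, in Y53F4B.47 at chrII:15025814-15025983 (minus strand, the gene from base 91), smy-3 at chrV:14092497-14092651 (plus strand, the gene from base 76) and T26A8.6 at chrIV:8428614-8428810 (minus strand, the gene from base 72). The capitals within Y53F4B.47 mark its C and D boxes.
Y53F4B.47: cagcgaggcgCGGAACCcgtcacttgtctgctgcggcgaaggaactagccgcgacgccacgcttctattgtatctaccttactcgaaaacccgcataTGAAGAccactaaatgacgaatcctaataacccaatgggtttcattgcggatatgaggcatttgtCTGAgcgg
smy-3: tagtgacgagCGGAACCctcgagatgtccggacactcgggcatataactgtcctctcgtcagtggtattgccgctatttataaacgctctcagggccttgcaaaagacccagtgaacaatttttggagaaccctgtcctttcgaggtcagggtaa
T26A8.6: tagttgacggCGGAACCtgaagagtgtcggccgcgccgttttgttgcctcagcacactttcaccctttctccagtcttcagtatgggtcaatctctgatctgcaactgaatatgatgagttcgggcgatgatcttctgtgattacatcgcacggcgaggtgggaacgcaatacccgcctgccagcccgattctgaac

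For contrast, F56A12.6 at chrV:14362276-14362451 (plus strand, the gene from base 101) had no summit within 200 bp in any list and holds neither element.
F56A12.6: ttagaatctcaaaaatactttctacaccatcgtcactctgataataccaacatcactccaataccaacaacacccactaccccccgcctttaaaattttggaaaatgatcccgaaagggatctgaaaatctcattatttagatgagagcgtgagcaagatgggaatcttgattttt

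Peak lists of 2 kinds were used. The relaxed lists, made as input for an analysis of reproducibility between replicates (irreproducible discovery rate, IDR), numbered 21160 peaks in replicate 1, 21503 in replicate 2 and 18953 in the pooled reads. The reproducible set held 606 peaks, 584 of them on nuclear chromosomes. Signal is each peak's own value from the authors' peak caller, is used only within a list, and ran up to 421.4 in the pooled list on nuclear chromosomes, with a median of 31.0. Sequencing depth is unknown, as no read counts accompany the peaks.

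REC-8::GFP summits were found at a minority of these snoRNA genes, and where they were found they were often among the strong ones. In the pooled relaxed list 49 of the 130 genes had a summit (37.7%, exact 95% binomial interval 29.3 to 46.6), against 10.6% of all nuclear genes. In the reproducible set 29 of the 130 had one (22.3%, interval 15.5 to 30.4), against 1.46% of all nuclear genes. As a multiple of the share of all genes, the members' share was higher in the reproducible set than in the relaxed list. The difference in percentage points was larger in the relaxed list. The 29 genes lay at 29 separate peaks, and 14 of the 100 strongest nuclear peaks of the pooled list had their summit at a member. The intervals cover the counting of genes only, and genes are not replicates of the worms.

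The shares were similar in both replicates. Replicate 1 had a summit at 48 members (36.9%), against 10.8% of all nuclear genes. Replicate 2 had one at 49 members (37.7%), against 11.5%. A summit in both replicates was found at 38 members (29.2%, interval 21.6 to 37.8), against 4.64% of all nuclear genes. Among the 606 strongest peaks of each replicate, taken alone, replicate 1 had a summit at 28 members, against 1.36% of all nuclear genes, and replicate 2 at 29 members, against 1.41%. In all, 25 members were reached by the 606 strongest peaks of both replicates and 7 by those of 1 replicate. The same split over all nuclear genes is not given here, so these counts describe the members alone.

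Other classes of gene were set beside the members without a test, since genes are the only units. The 216 snoRNA genes inside protein-coding genes had a reproducible summit in 32 cases (14.8%, interval 10.4 to 20.3), a range that overlaps that of the members. Of the 612 tRNA genes, 258 had one (42.2%, interval 38.2 to 46.2), and of the 129 snRNA genes 9 had one (6.98%, interval 3.24 to 12.8). Protein-coding genes had one in 131 of 19973 cases (0.656%). The members thus lay below tRNA genes and above snRNA and protein-coding genes in the reproducible set, with intervals that did not overlap, whereas in the pooled relaxed list members (37.7%) and snRNA genes (36.4%) had almost the same share. Among genes with a summit, the median pooled signal was 97.7 at members, against 70.1 at snoRNA genes inside protein-coding genes, 82.0 at tRNA genes, 50.9 at snRNA genes, 33.6 at protein-coding genes and 34.9 at all nuclear genes.

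**Figure D1:**
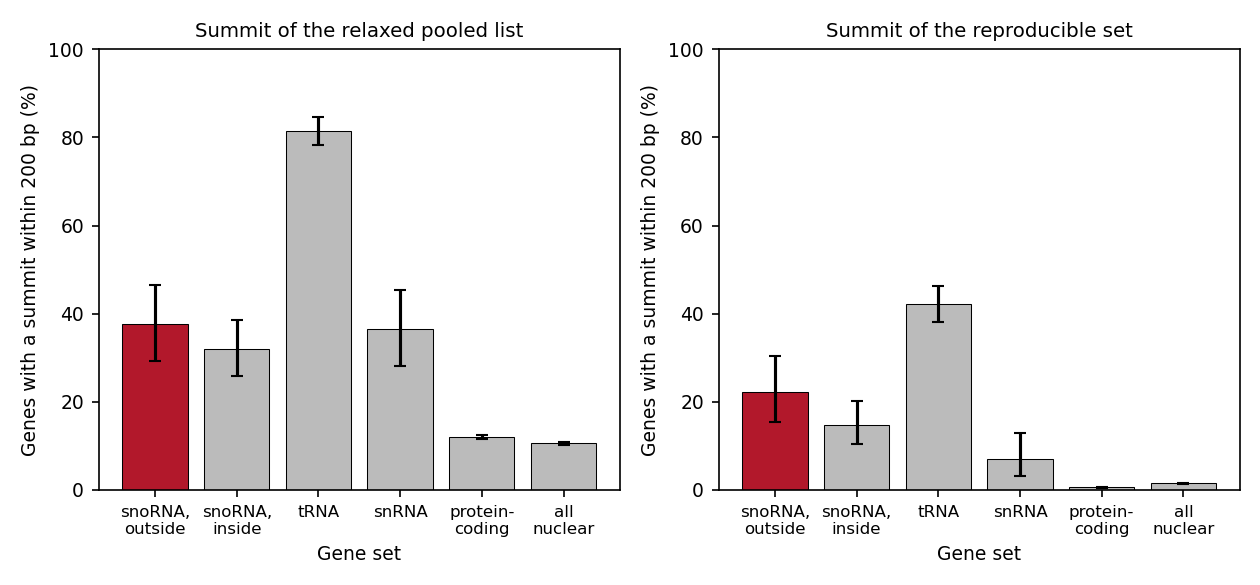
Share of genes with a summit within 200 bp of the start (y axis, percent) in the pooled relaxed list (left) and in the reproducible set (right), for snoRNA genes outside protein-coding genes (red) and for other gene sets (grey). Bars are shares and error bars exact 95% binomial intervals; the members stand at 37.7% in the relaxed list and 22.3% in the reproducible set, below tRNA genes and above all nuclear genes in both.

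The 130 genes fell into 3 groups by their summits. The 29 genes at a reproducible peak had pooled signals of 90.4 to 333 (median 153). Another 20 had only a weaker pooled summit, with signals of 23.9 to 76.6 (median 39.6). The remaining 81 had no pooled summit within 200 bp. The reproducible set follows signal, so this gap in level is part of how the groups are defined and is given as a description. At its edge stood T26A8.6 (90.4) and F47G4.9 (92.2) inside the set, and W03B1.17 (76.6) and K09E9.5 (70.8) outside it.

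The strongest member was W03C9.9, a C/D-like snoRNA gene on chromosome II with the 3rd strongest of all nuclear pooled peaks. Its pooled signal was 333, and its signal was 189 in replicate 1, where it ranked 23, and 145 in replicate 2, where it ranked 25. ZK265.10 on chromosome I had a pooled signal of 287, with 142 in replicate 1 (rank 27) and 146 in replicate 2 (rank 24). Ranks count all peaks of a list, mitochondrial ones included, so both genes stood near the top of the nuclear peaks in each replicate. Y75B12B.12, on chromosome V, had 126 in replicate 1 (rank 38) and 125 in replicate 2 (rank 34), for a pooled signal of 246. T06C12.16, on the same chromosome, had 129 in replicate 1 (rank 33) and 113 in replicate 2 (rank 46), for a pooled signal of 236. These 4 genes ranked within the first 50 peaks of both replicates. F32E10.10 had 117 (rank 43) in replicate 1 and 107 (rank 54) in replicate 2. T19B4.8 had 93.1 (rank 80) in replicate 1 and 138 (rank 27) in replicate 2. H09I01.2 had 99.3 (rank 66) in replicate 1 and 109.9 (rank 52) in replicate 2. The order within this leading group therefore shifted between replicates, while each of the 7 stayed within the first 100 peaks of both.

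Every one of the 29 genes at a reproducible peak had a summit in both replicates. The set was chosen by IDR for agreement between these same replicates. Their likeness at the 29 genes is therefore partly given by that choice. Their signal ran from 28.8 to 189 in replicate 1 (median 74.9) and from 51.1 to 146 in replicate 2 (median 80.9). Across these 29 genes the signals of the replicates were correlated with a Spearman rho of 0.63, and across the 38 genes with a summit in both replicates rho was 0.76. These are descriptions across genes of the same 2 libraries. The summit of replicate 1 and that of replicate 2 lay a median of 24 bp apart at the 29 genes (at most 123 bp), and within 50 bp of each other at 23 of them.

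A few genes stood apart in 1 replicate. F30H5.4 had 127 in replicate 1 (rank 35) and 51.8 in replicate 2 (rank 415). The reverse held for smy-3, with 29.2 in replicate 1 (rank 2725) and 68.2 in replicate 2 (rank 206), and for T26A8.6, with 28.8 in replicate 1 (rank 2864) and 66.8 in replicate 2 (rank 222). Both smy-3 and T26A8.6 thus ranked high in replicate 2 only. T10B9.11 (rank 776 in replicate 1 and 304 in replicate 2) and M03D4.78 (rank 899 and 324) were of the same kind. In the other direction, W03B1.17, K09E9.5 and Y67A10A.14 were among the 606 strongest peaks of replicate 1 (ranks 567, 544 and 476) and not of replicate 2 (ranks 1087, 4818 and 7367), and none of these 3 was at a reproducible peak.

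**Figure D2:**
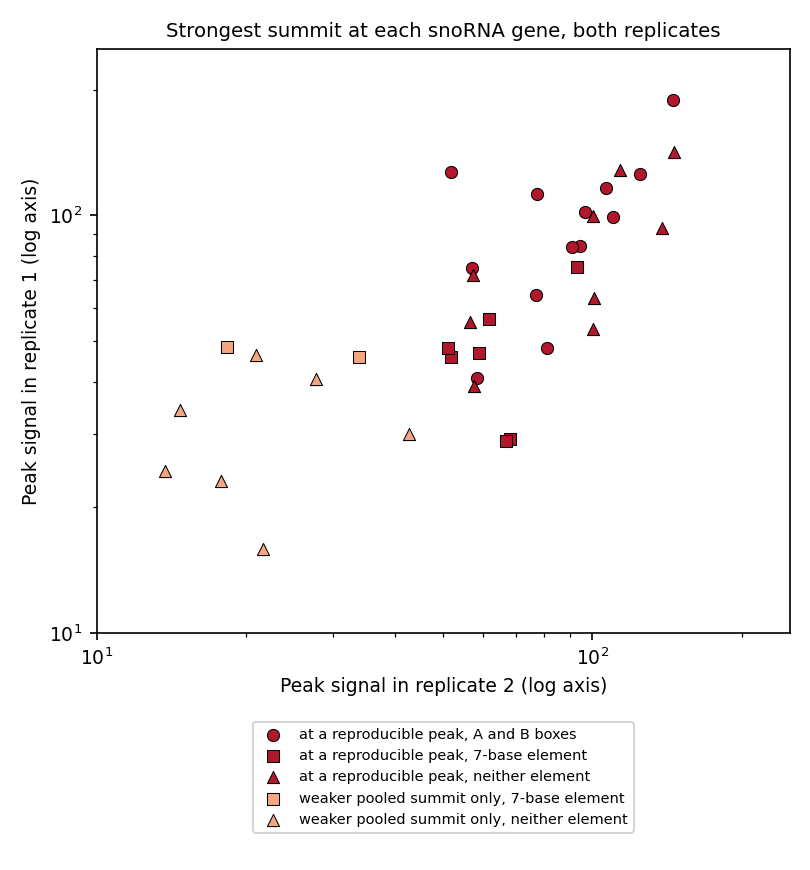
Peak signal of the strongest summit within 200 bp of the start in replicate 1 (y axis) and replicate 2 (x axis), both on log axes, for the 38 snoRNA genes with a summit in both; symbols show the upstream element, and each list has its own scale of signal. Genes at a reproducible peak (dark red) reach 189 in replicate 1 and 146 in replicate 2, and those with a weaker summit (light) reach 48.4 in replicate 1 and 42.6 in replicate 2.

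The summits lay just upstream of the genes. At the 29 genes the pooled summit was between 74 bp before and 103 bp after the annotated start, with a median signed offset of −31 bp, and 22 of the 29 (75.9%) were upstream. In replicate 1 the median offset was −44 bp with 21 of 29 upstream, and in replicate 2 it was −40 bp with 23 of 29 upstream. At tRNA genes with a reproducible summit the median offset was 31.5 bp, on the other side of the start, and 32.6% of summits were upstream. At snRNA genes the offset was 45 bp. SnoRNA genes inside protein-coding genes had −22.5 bp with 78.1% upstream, close to the members, while protein-coding genes had −121 bp. Among the 29, Y53F4B.47 had the farthest downstream summit in the pooled list, at 103 bp. It lay at 108 bp in replicate 1 and 104 bp in replicate 2, past the end of its 80 annotated bases.

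The pair of A box and B box was found mainly at members with a reproducible peak. The rule was chosen after the sequences had been seen, so the counts at members describe them and lend no support to a link. A pair was found at 13 of the 29 genes at a reproducible peak (44.8%), at 1 of the 20 with a weaker summit (Y59E1B.14) and at 0 of the 81 with none, against 0.642% of all nuclear genes (301 genes). Among all 685 nuclear genes at a reproducible peak the share with a pair was 7.88%. Among snoRNA genes inside protein-coding genes at a reproducible peak it was 56.25% (18 of 32), above that of the members. Read the other way, 13 of the 14 members with a pair were at a reproducible peak (92.9%). Of the 301 nuclear genes with a pair 54 were (17.9%), and of the 98 protein-coding genes with a pair 3 were (3.06%). Among snoRNA genes inside protein-coding genes 25 had a pair, and 18 of those were at a reproducible peak (72%). Of the 612 tRNA genes the rule found a pair at 12 (1.96%), with a window that ends 50 bases after the start, and 8 of those 12 were at a reproducible peak. The 301 therefore hold few tRNA genes. No test was made of this link, and the letters alone do not show that a factor binds there.

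The position of the pair varied little. At the 14 members the A box began 72 to 54 bases before the start, 19 possible positions, although the search covered the whole 300-base window as far as the spacing to the B box allowed. That stretch is the members' own range, so all of them lie in it by definition. Of the 287 other nuclear genes with a pair, 35 (12.2%) had the A box there, and 15 of those 35 were snoRNA genes inside protein-coding genes. At the 13 genes with a pair and a reproducible peak the B box began 28 to 11 bases before the start (median 15 before), so each pair lay upstream of the annotated gene rather than within it. The pooled summit lay from −11 to 74 bp from the centre of the A box (median 23.5) and from −55 to 32 bp from the centre of the B box (median −28), counted along transcription. In replicate 2 the medians were the same, and in replicate 1 they were 5 and −39 bp. The summit's place relative to either box thus differed from gene to gene. At all 13 genes the summits of the replicates were at most 37 bp apart.

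Among these 13 genes the pooled signal ran from 97.7 to 333 with a median of 179. W03C9.9, Y75B12B.12, F32E10.10 and H09I01.2, whose sequences are printed above, led them. T02E1.9 had 200.3, C53B7.8 184, F30H5.4 179, C41C4.11 178 and F12F6.11 169. C46C2.8 had 140.4, Y53F4B.48 139, Y39G10AR.24 128 and T10B9.11 97.7. Their annotated genes were short, with a median of 72 bases, about the length of a tRNA gene (median 72). The 9 other genes at a reproducible peak had neither the pair nor CGGAACC, and their signals, from 96.0 to 287 with a median of 153, overlapped those of the 13. They were ZK265.10, T06C12.16, T19B4.8, Y23H5B.10, T27A3.9, K02C4.8, ZK643.9, W01C9.6 and M03D4.78. A strong summit was therefore not limited to genes in which the search found a pair.

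CGGAACC, also picked from sequences already seen, was found at another group of members. On the sense strand it was present at 7 of the 29 genes at a reproducible peak, at 2 of the 20 with a weaker summit (W03B1.17 and Y67A10A.14) and at 4 of the 81 with none (among them C06E7.95, K02F6.11 and W07G1.23), against 0.691% of all nuclear genes. The share among the 29 was 24.1%, against 2.77% of all nuclear genes at a reproducible peak. Of the 9 snRNA genes at a reproducible peak 6 had it (66.7%), a higher share than at the members. No member held both elements. In all 13 members it began 80 to 60 bases before the start, 21 possible positions, a range set by the members themselves. Of the 311 other nuclear genes with it, 48 (15.4%) had it there, of which 21 were snRNA genes. It was present at 32 of the 129 snRNA genes (24.8%) and at 11 of the snoRNA genes inside protein-coding genes. Of the 13 members with it 7 (53.8%) were at a reproducible peak, against 6 of the 32 snRNA genes with it (18.8%) and 19 of the 324 nuclear genes with it (5.86%).

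At these 7 genes the pooled signal ran from 90.4 to 163. F59C6.15 had 163 and F25H2.15 had 115.3. Y53F4B.47 had 103, smy-3 102, Y74C9A.6 96.5, F47G4.9 92.2 and T26A8.6 90.4. Their median was 102, against 179 at the 13 genes with the A and B boxes, and the ranges overlapped. The replicates' summits lay a median of 20 bp apart, as at the genes with the paired boxes, with at most 96 bp here and at most 37 bp there. The signed summit offset ran from −70 to 103 bp.

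**Figure D3:**
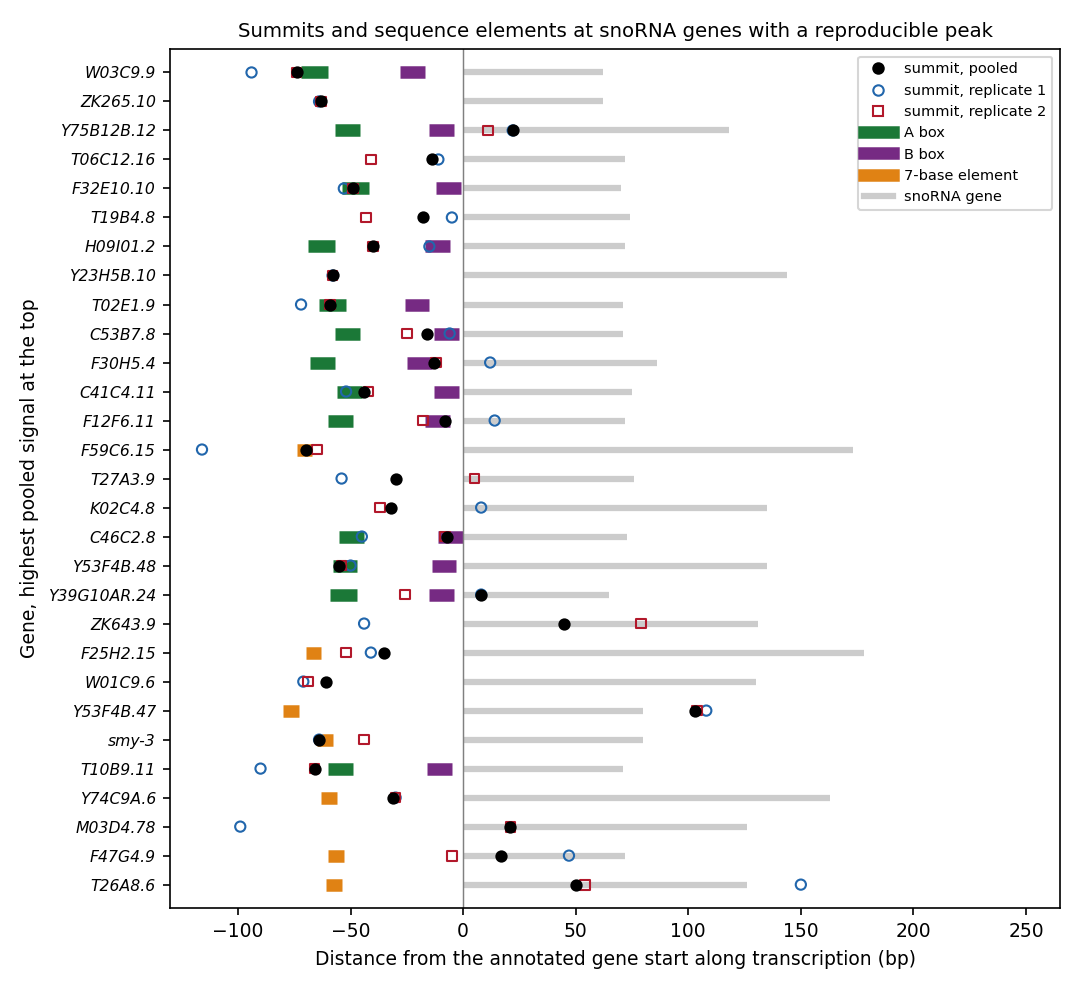
Map of the 29 snoRNA genes at a reproducible peak, aligned at the annotated start (x axis, bp along transcription) and ordered by pooled signal with the highest at the top. Grey bars are the genes, green and purple bars the A and B boxes, orange bars the 7-base element CGGAACC, and symbols the summits of the pooled list and of each replicate. The A boxes begin 72 to 54 bases before the start and most summits lie between 74 bp before it and the start itself.

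The other motifs searched differed less between the gene sets. The B box core GGTTCGA alone, on either strand and part of the B box above, was present in the 300-base window of 5 of the 29 genes at a reproducible peak (17.2%), against 2.29% of all nuclear genes. The 300 bases around the summit held it at 5 of these 29 genes, against 191 of the 584 nuclear reproducible summits (32.7%). The TATA box TATAAA was present at 11 of the 29 (37.9%), against 37.4% of all nuclear genes. The C box TGATGA was present at 7 (24.1%), against 21.0%, and the GA repeat GAGAGA also at 7 (24.1%), against 17.5%. None of these last 3 stood clearly above the share in all genes.

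The genes at a reproducible peak were also short and had low WormBase identifier numbers, which are running numbers given to genes as they enter the database. Splits on both were made after the values were seen. The annotated length had a median of 76 bases at the 29 genes (62 to 178), 170.5 at the 20 with a weaker summit and 154 at the 81 with none. Of the 32 members under 100 bases 18 were at a reproducible peak, against 11 of the 98 longer ones. Of the 35 members with a number under 100000, 27 were at a reproducible peak (77.1%), 4 had a weaker summit and 4 had none. Of the other 95, only M03D4.78 and T26A8.6 were at one (2.11%, near the 1.46% of all nuclear genes), while 16 had a weaker summit and 77 had none. In the pooled relaxed list 18 of these 95 had a summit (18.9%), against 10.6% of all nuclear genes. All 13 genes with the pair of boxes and a reproducible peak had low numbers, so the contrasts by box and by number overlap. Length and number overlap as well: 23 of the 32 members under 100 bases had low numbers, against 12 of the 98 longer ones. Of the 8 members with low numbers and no reproducible peak, 5 were under 100 bases. M03D4.78 and T26A8.6 both had 126 bases.

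The box features of snoRNAs were then counted by rule. With the strict rule (TGATGA in the first 25 bases and CTGA in the last 25) 5 members were C/D-like, all with low numbers, and 3 were at a reproducible peak. With up to 1 mismatch in the C box, a rule chosen after the sequences had been seen, 16 members had C and D boxes. Of these 16, 12 were at a reproducible peak, none had a weaker summit and 4 had none (C16D9.10, C18A3.12, F37A8.7 and ZC395.12). Members not C/D-like by the strict rule but with an ACA 2 to 4 bases before the 3′ end were taken as H/ACA-like. There were 15, with 6 at a reproducible peak, 4 with a weaker summit and 5 with none. C53B7.8 and C46C2.8, both at a reproducible peak, were H/ACA-like and also among the 16 with C and D boxes. Of these 15, 7 had low and 8 had high identifier numbers. That leaves 110 members undetermined under the strict rules, 20 of them at a reproducible peak, and only 2 of the 95 members with high numbers had C and D boxes under the looser rule. The biotype is that of the annotation, and whether each of the 130 makes a snoRNA was not tested.

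**Figure D4:**
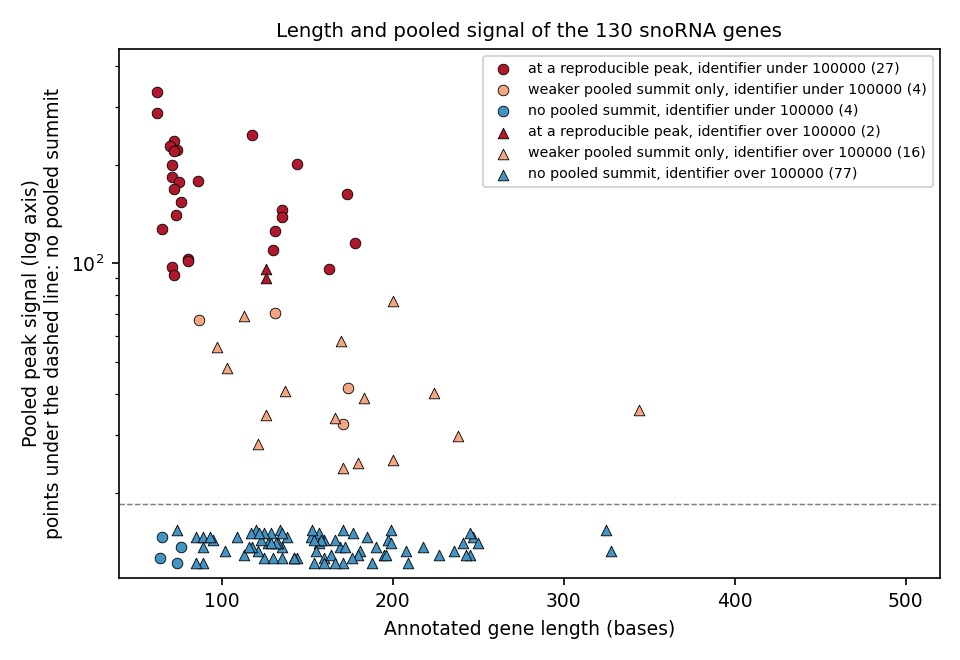
Pooled peak signal (y axis, log scale) against annotated length in bases (x axis) for the 130 snoRNA genes, with circles for identifier numbers under 100000 and triangles for higher ones. Points below the dashed line are the 81 genes with no pooled summit, spread vertically only to separate them. The dark red points (29 genes at a reproducible peak) are mostly circles at short lengths.

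By chromosome, 10 of 30 members on chromosome I were at a reproducible peak, 7 of 28 on II, 2 of 10 on III, 6 of 23 on IV and 3 of 16 on V. On the X chromosome 1 of 23 was (4.35%), the gene C53B7.8. The share was 1.46% over all nuclear genes, and its value for all genes of each chromosome is not given here. The counts by chromosome therefore describe the members alone. Low identifier numbers were unevenly spread as well, with 10 on I and 3 on X. Of those 3 on X, C53B7.8 was at a reproducible peak, K09E9.5 had a weaker pooled summit of 70.8 and M163.14 had no summit.

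Neighbouring genes were counted, since a summit can belong to another gene. No summit at a member had a tRNA gene start within 500 bp, and no member had another member's start within 500 bp. A tRNA, snRNA or rRNA gene start lay within 500 bp of 3 members, none of which had a pooled summit. A protein-coding start lay within 500 bp of 22 members, 8 of them at a reproducible peak (36.4%), while of the 108 members without one 21 were (19.4%). A protein-coding start within 200 bp was found at 6 members, none of them at a reproducible peak.

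The 20 genes with a weaker summit were mixed. A summit was present in both replicates at 9 of them, in 1 replicate at 8 and in neither at 3. The last 3 were C34E11.20 (pooled signal 58.2), M7.15 (55.8) and C01B10.48 (29.7). The genes whose standing differed most between the replicates were T19E7.29, with 15.9 in replicate 1 (rank 18595) and 21.6 in replicate 2 (rank 4347), ZK20.9, with 34.1 (rank 1496) and 14.7 (rank 13523) in replicates 1 and 2, and T23G11.12, with 24.4 (rank 5372) and 13.7 (rank 15857). Pooled summits in this group lay from 190 bp before to 180 bp after the start, a wider spread than at the reproducible peaks. Y59E1B.14, the member with the pair and no reproducible peak, had its pooled summit (28.1) 146 bp before the start, and no summit in replicate 1.

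Of the 81 genes without a pooled summit, 68 had none in either replicate, and 13 had one in a single replicate, where signals stayed at or below 32.0. The shortest were M163.14, C18A3.12 and C16D9.10, and C18A3.12 and C16D9.10 had a summit in replicate 2 only, of 15.7 and 12.6. The longest were Y73B3A.30, F19G12.14 and ZC410.9. F56A12.6, printed above, has a low number and 76 bases and still lacked a summit in all 3 relaxed lists, so neither feature went with a summit in every gene. Just inside the 200 bp window were the pooled summits of F30A10.16 (190 bp), C34E11.20 (189 bp) and C01B10.48 (185 bp), and just outside it those nearest to C16D9.10 (221 bp), T21B4.20 (224 bp) and Y17G7B.25 (225 bp).

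Genes for the proteins that work with these RNAs were counted in the same way, beside all protein-coding genes, of which 11.9% had a pooled summit and 0.656% a reproducible one. At such a low share a count of 0 in lists of this size is not a result about them. Of 8 genes for snoRNP proteins, among them fib-1 (fibrillarin, the methyltransferase of C/D snoRNPs) and dkc-1 (the pseudouridine synthase of H/ACA snoRNPs), 0 had a summit in the pooled list and 0 in the reproducible set. In single replicates fib-1 had a summit of 12.4 in replicate 2, nol-58 one of 16.3 in replicate 1, and nola-3 one of 28.7 in replicate 1 and 20.2 in replicate 2. Of 17 genes for RNA polymerase III subunits and factors, 5 had a pooled summit and 0 a reproducible one. The 5 were rpc-2, a polymerase subunit (45.4), tbp-1, the TATA-binding protein (36.7), tftc-3 (33.4) and tftc-5 (30.9), subunits of TFIIIC, and mafr-1 (24.1), which encodes the repressor Maf1. Each was below the weakest member at a reproducible peak, which is largely given by their absence from the reproducible set, since that set follows signal. The values of mafr-1 and fib-1 were near the lowest of their lists, 23.6 in the pooled list and 11.9 in replicate 2.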

How the data were processed

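REC-8::GFP ChIP-seq peak lists of 2 biological replicates were analysed. Per the notes deposited with the files, the relaxed lists were made from the reads of each replicate, or of both together, with 1 control file, and the reproducible set was chosen by IDR. In the deposited narrowPeak files the signal column holds the authors' peak caller's value per peak, q-values are given as −log10, and a further column places the summit. Aligner, peak caller and IDR cutoff: not given in the sources used here. Lists on ce10 were not used here, since no ce10 annotation was at hand. Without read counts no depth or per-gene error can be given.

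Summits on ce11 were assigned to annotated gene starts of Ensembl release 115 within 200 bp, the strongest counting, on all 46890 nuclear genes. Offsets are positive along transcription. Shares carry exact 95% Clopper-Pearson intervals. No test was made between gene sets, and 1 group allows no comparison of conditions. Python 3.11.15, numpy 2.4.6, pandas 2.3.3, scipy 1.17.1 and matplotlib 3.10.9 were used, and summit assignment was tested on simulated peaks.

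The members and gene lists were chosen with earlier results of these data known. Named genes were the 20 of highest pooled signal, all at a reproducible peak, the 3 whose percentile ranks differed most between replicates, up to 3 in the pooled list only, and the 3 longest and 3 shortest with no summit. Listed snoRNP and RNA polymerase III genes with a summit were added. Others, named for a sequence element, a replicate rank or the edge of a window or set, were chosen after their values were seen. One listed polymerase III gene, sfc-1, was not matched. Alternatives were windows of 100 and 500 bp, each replicate alone, the stronger 50% of each list and other member filters. Added after seeing the data were other mismatch limits and CGGAAC in place of CGGAACC.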

Additional observations from a re-analysis of the deposited data

How the results depend on the processing

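The counts of members with a summit changed by less than 1.5 times in every alternative run: 41 to 66 against 49 in the pooled list, 21 to 30 against 29 in the reproducible set and 32 to 50 against 38 in both replicates. Shares of all nuclear genes with the other windows or the stronger 50% of each list are not given here. These counts therefore describe the members alone, not their standing against all genes. The median pooled signal of 97.7 moved with the window, to 115.3 at 100 bp and 72.9 at 500 bp, and to 107 in the stronger 50% of the list. The median distance from start to summit was 50 bp, 44 bp with the 100 bp window and 71 bp with the 500 bp window. With 1 replicate left out, the median signal was 47.5 to 57.1, on the replicate lists' own scale, and the median distance 52.5 to 54 bp. Some counts that rest on sequence rules moved more. With up to 1 mismatch per box, 5 of the 29 genes at a reproducible peak had the pair (0.126% of all nuclear genes), and with up to 3 mismatches 19 had it (19.2% of all nuclear genes). At that looser limit 4 of the 20 genes with a weaker summit had it, and 21 of the 81 with no pooled summit (25.9%). The count of 0 among those 81 thus held at up to 2 mismatches and not at 3. With TGATGA exact, 3 of the 29 had C and D boxes, against 12 with the looser rule. With CGGAAC in place of CGGAACC the count at the 29 genes stayed at 7. The count rose from 2 to 4 of the 20 with a weaker summit and from 4 to 7 of the 81 with none. Of all nuclear genes 2.99% had CGGAAC, against 0.691% with CGGAACC. No paired analysis was possible because the samples form 1 group. The files give no depth, so what a deeper library would add at the 81 genes without a pooled summit is unknown.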
